A study of Mus musculus with 47 samples.

Results

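The genes described here mark the thin gas-exchange cells and the conducting airways of the lung. They are 10 of the 20456 genes in the count table, and each was found by its symbol. Ager, Hopx, Aqp5, Pdpn and Rtkn2 stand for alveolar type 1 cells, Scgb1a1 and Scgb3a2 for secretory airway cells, and Foxj1, Tekt1 and Ccdc39 for ciliated airway cells. RNA was sequenced in bulk from whole lung, brain and liver of C57BL/6 mouse embryos at E18.5, in 47 libraries of 12 groups. S226A embryos were homozygous for a Daxx allele made to abolish binding to the histone variant H3.3, and Y130A embryos for one made to abolish binding to Atrx. In the study, Daxx protein was lower with S226A and higher with Y130A in embryonic fibroblasts and E18.5 lung, most clearly in fibroblasts. The study also named incomplete loss of Atrx binding as possible, since a faint Atrx band appeared in some of its binding assays. Both alleles are germline point mutations, introduced by CRISPR into C57BL/6N zygotes and bred onto C57BL/6J, so that every cell carried them, and wild-type (WT) littermates came from the same intercrosses of heterozygous parents. Within a tissue each library is a separate embryo, and an embryo can have given libraries of more than 1 tissue. The lungs comprised 4 S226A embryos with 4 WT littermates and 4 Y130A embryos with 3 WT littermates, 15 libraries in all. The study had removed 1 more WT lung of the Y130A litters as an outlier, judged by principal components and a heatmap of expression. Y130A lung replicate 4 came from the litter of that lung, so that it has no WT littermate lung here. A point mutation cannot be read from gene counts, so that the genotype labels were not checked against Daxx expression.

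Daxx is a histone chaperone, a protein that escorts H3.3 to chromatin, and Atrx is the remodelling factor with which it works at heterochromatin. Around birth the distal lung epithelium separates into flat type 1 cells, over which gas exchange takes place, and cuboidal type 2 cells, which make surfactant. The conducting airways are lined by secretory cells, formerly called Clara cells, and by multiciliated cells, whose beating cilia move mucus. Foxj1 is the forkhead transcription factor of the motile cilium program and acts beside the RFX factors, which bind X-box sequences upstream of many cilium genes. Nkx2-1 is the homeodomain factor that marks all lung epithelium.

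All 10 genes are protein coding and carried the same identifier version in GENCODE M21, whose GRCm38 positions are given here. Ager (ENSMUSG00000015452.14) lies at chr17:34597862-34600936 and encodes the receptor for advanced glycation end products, an abundant basal membrane protein of type 1 cells. Hopx (ENSMUSG00000059325.14, chr5:77086988-77115121) encodes a small homeodomain protein, Aqp5 (ENSMUSG00000044217.17, chr15:99590782-99594829) a water channel of the apical membrane, and Pdpn (ENSMUSG00000028583.14, chr4:143267431-143299564) the glycoprotein podoplanin. Rtkn2 (ENSMUSG00000037846.18, chr10:67979570-68059740) encodes rhotekin 2. Scgb1a1 (ENSMUSG00000024653.2, chr19:9083636-9087958) and Scgb3a2 (ENSMUSG00000038791.14) encode small secreted proteins of the secretoglobin family. Foxj1 (ENSMUSG00000034227.7) lies at chr11:116330704-116335399. Tekt1 (ENSMUSG00000020799.16, chr11:72344722-72362442) encodes a tektin of the axonemal microtubules, and Ccdc39 (ENSMUSG00000027676.11, chr3:33812362-33844310) encodes a ruler protein that sets the repeat length of the axoneme. Ccdc39 overlaps Ttc14, and Hopx and Rtkn2 overlap other annotated genes, each on the opposite strand. Whether strand was used in counting is not given in the sources used here, so that reads of overlapping genes may be shared.

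Promoter sequence was held by the RefSeq table for 6 of the 10 genes and not for Rtkn2, Scgb1a1, Scgb3a2 and Foxj1. The 120 bases before the RefSeq start (GRCm38.p6) are shown for both ciliated genes that had an entry and for Ager, the most abundant type 1 gene by reads, because RFX factors act on cilium genes and their binding core GTTGCC was found in 1 of these 3, Tekt1. Capitals mark that core, as every motif was searched, on either strand (GTTGCC or GGCAAC), and each line reads 5′ to 3′ along the gene's own strand.
Tekt1, chr11:72361883-72362002, minus strand: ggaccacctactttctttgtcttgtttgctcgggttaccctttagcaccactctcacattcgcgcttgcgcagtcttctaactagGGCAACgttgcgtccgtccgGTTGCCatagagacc
Ccdc39, chr3:33844311-33844430, minus strand: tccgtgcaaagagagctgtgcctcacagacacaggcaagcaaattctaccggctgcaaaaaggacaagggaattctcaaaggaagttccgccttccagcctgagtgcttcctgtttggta
Ager, chr17:34597730-34597849, plus strand: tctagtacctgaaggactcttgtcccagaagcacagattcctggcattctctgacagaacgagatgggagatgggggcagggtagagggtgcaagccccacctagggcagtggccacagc
Tekt1 held 2 such cores in this stretch, 35 and 15 bases before the start, and none in its second promoter, while Ccdc39 and Ager held none in 250 bases. Of 32851 mouse promoters in the table, 5.46% held GTTGCC within 120 bases of the start and 10.4% within 250 bases. Hopx held 2 such cores within 250 bases, at 153 and 102 bases before the start, with 1 more in its second promoter, and Aqp5 and Pdpn held none. The Nkx2-1 core CTCAAG, present in 13.3% of promoters, occurred once in Hopx and in no other member with an entry. The forkhead core TGTTTAC, present in 3.17%, occurred once in Pdpn and in no other. These matches describe letters in a window and not binding.

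The WT samples showed how far each gene belonged to the lung. Levels were expressed as CPM, a gene's counts scaled to a common library size, after TMM scaling, which corrects library sizes for composition. Ager had a median of 990 CPM in 7 WT lungs (range 917 to 1170), against 1.25 CPM in 8 WT brains (1.09 to 1.68) and 2.25 CPM in 8 WT livers (1.81 to 4.93). No read of Scgb1a1 or Scgb3a2 was counted in any of the 8 WT livers, where 3 counts per library allow at most 0.216 CPM, so that the lung medians of 115 and 430 CPM were at least 533-fold and 1993-fold higher. Aqp5 was 158-fold higher in lung than in brain by the medians. The ciliated genes were shared with the brain, whose ventricles are lined by ciliated ependymal cells. Ccdc39 had a median of 44.0 CPM in lung and 33.6 CPM in brain, and the ranges of both tissues overlapped (25.2 to 50.9 against 28.3 to 40.1). The lung medians of Foxj1 and Tekt1 were 3.75-fold and 2.37-fold above those of brain, and that of Pdpn was 3.42-fold above. Hopx and Rtkn2 were measurable in all 3 tissues, with 12.5 and 6.36 CPM in brain and between 11.1 and 21.8 CPM (Hopx) and between 3.52 and 10.4 CPM (Rtkn2) in liver.

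**Figure D1:**
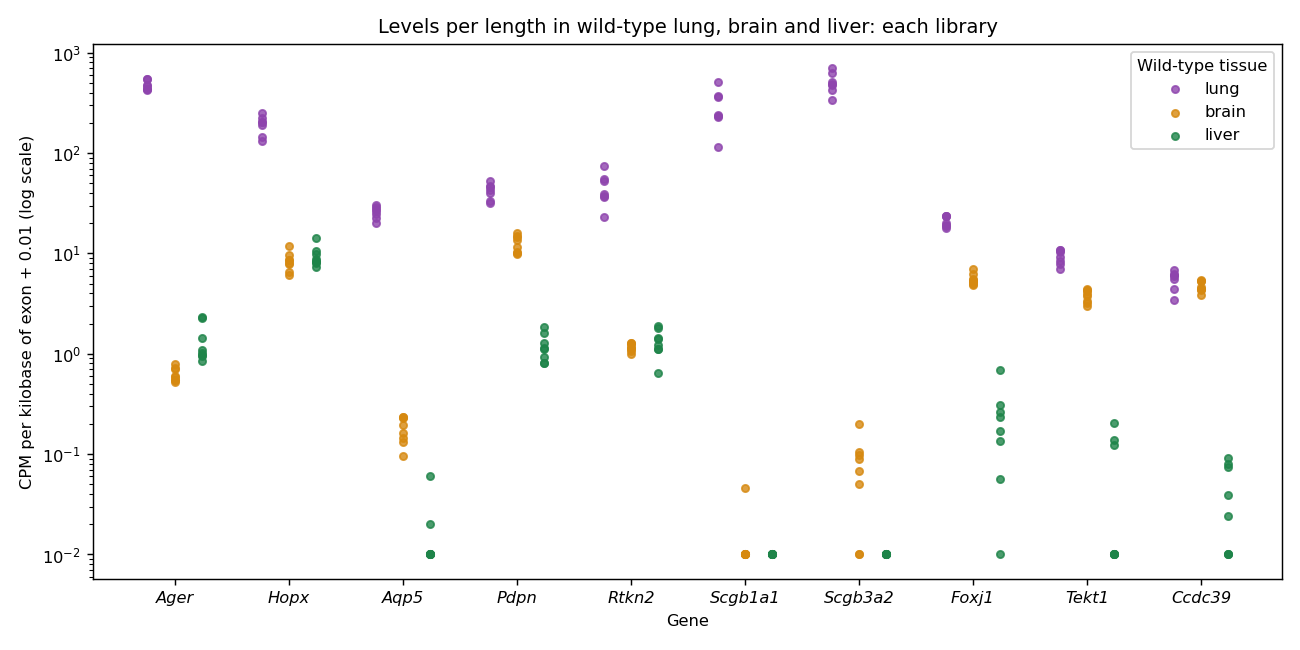
Levels of the 10 genes as CPM per kilobase of exon plus 0.01 (log axis) in each wild-type library of lung (7), brain (8) and liver (8), 1 point per library; points at the bottom have no read. Both secretoglobins are high in lung and at or near no reads elsewhere, and Ccdc39 is the gene whose lung and brain values overlap.

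Per kilobase of exon, the order of the medians in WT lung was Scgb3a2 (488 CPM per kb, range 337 to 699), Ager (463, 428 to 546), Scgb1a1 (241, 116 to 507), Hopx (205, 131 to 248), Pdpn (43.1), Rtkn2 (39.5), Aqp5 (26.7), Foxj1 (20.1), Tekt1 (9.14) and Ccdc39 (5.92). Every neighbour in this order overlapped the next over the 7 lungs except at 3 steps, from Hopx to Pdpn, from Foxj1 to Tekt1 and from Tekt1 to Ccdc39. Scgb3a2, Ager, Scgb1a1 and Hopx thus lay above the other 6 in every WT lung, and Tekt1 and Ccdc39 lay below the other 8.

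In S226A lungs none of the 10 genes differed from WT littermates beyond the spread between embryos. The call used edgeR's quasi-likelihood test with an adjusted p below 0.05 over all 16892 genes tested, and 0 of 10 members passed, against a background of 1.88% of all genes (317). No member passed at an unadjusted p below 0.05 either (background 16.2%), none passed the stringent call (adjusted p below 0.01, log2 fold change beyond 1, standard error below 1; background 0.302%) and DESeq2 called 0. In a fit to the 15 lungs alone 1 member had an unadjusted p below 0.05, and 0 were called. With litter as a replicate block the background rose to 612 genes and the members remained at 0. In bulk tissue, fewer cells of a type and less RNA per cell cannot be told apart.

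Among the type 1 genes, Ager measured 974, 738, 862 and 1097 CPM in the 4 S226A lungs and 1019, 939, 940 and 917 CPM in their WT littermates. The mutants lay on both sides of the WT values, and the log2 fold change was -0.06 ± 0.19 (SE, adjusted p = 0.946). Its 95% confidence interval ran from 0.738-fold to 1.25-fold. Aqp5 measured 83.4, 47.5, 69.4 and 81.7 CPM in S226A against 74.8, 71.6, 78.7 and 58.2 CPM in WT. The group means were nearly equal, at 70.5 ± 16.6 (SD, n = 4) and 70.8 ± 8.92 CPM (SD, n = 4), with an interval from 0.774-fold to 1.28-fold. Pdpn had a log2 fold change of -0.07 ± 0.16 (SE, adjusted p = 0.910) and Rtkn2 of -0.18 ± 0.19 (SE, adjusted p = 0.716). Hopx had the most positive value of the type 1 genes, 0.25 ± 0.21 (SE, adjusted p = 0.613), from 314, 278, 251 and 374 CPM in S226A and 290, 312, 220 and 199 CPM in WT. These groups overlapped, and the mutant was higher in 3 of 4 litters.

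Neither secretory gene was called, and Scgb1a1 had the wider spread. Scgb1a1, the classical club cell secretory protein, measured 201, 102, 123 and 187 CPM in S226A and 241, 177, 174 and 113 CPM in WT. The highest and the lowest lung of this comparison differed by more than the group means (153 ± 47.9 against 176 ± 52.5 CPM, SD, n = 4 each), and the interval ran from 0.579-fold to 1.31-fold. Scgb3a2, which is also made by early airway progenitors, had a log2 fold change of -0.13 ± 0.26 (SE, adjusted p = 0.884).

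The ciliated genes did not share a sign. Foxj1 measured 46.8, 52.7, 38.0 and 40.5 CPM in S226A against 47.5, 49.7, 50.8 and 61.3 CPM in WT, with a log2 fold change of -0.23 ± 0.29 (SE, adjusted p = 0.768). One mutant lung lay above 3 of the WT lungs, so that the groups overlapped. Tekt1 had a log2 fold change of 0.16 ± 0.30 (SE, adjusted p = 0.878) and was higher in the mutant in 4 of 4 litters, by 0.07 to 0.30 on the log2 scale. Ccdc39 had the largest positive value of the members, 0.28 ± 0.22 (SE, adjusted p = 0.595), with 42.0, 57.4, 40.1 and 46.2 CPM in S226A and 44.0, 50.9, 33.0 and 25.2 CPM in WT. The WT lung of replicate 4 was the lowest of all 15 lungs for Ccdc39, Tekt1, Hopx and Scgb3a2. In its analysis of repeated elements the study treated what appears to be the same lung as a possible outlier. Without it the S226A values of Ccdc39, Hopx and Tekt1 were 0.12, 0.15 and 0.072, that of Scgb1a1 was -0.36 and that of Scgb3a2 -0.30, with 0 members called. Over all single lungs left out, Ccdc39 ranged from 0.12 to 0.45, Hopx from 0.14 to 0.37, Tekt1 from 0.056 to 0.30 and Scgb1a1 from -0.36 to -0.0090, the last without WT replicate 1.

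**Figure D2:**
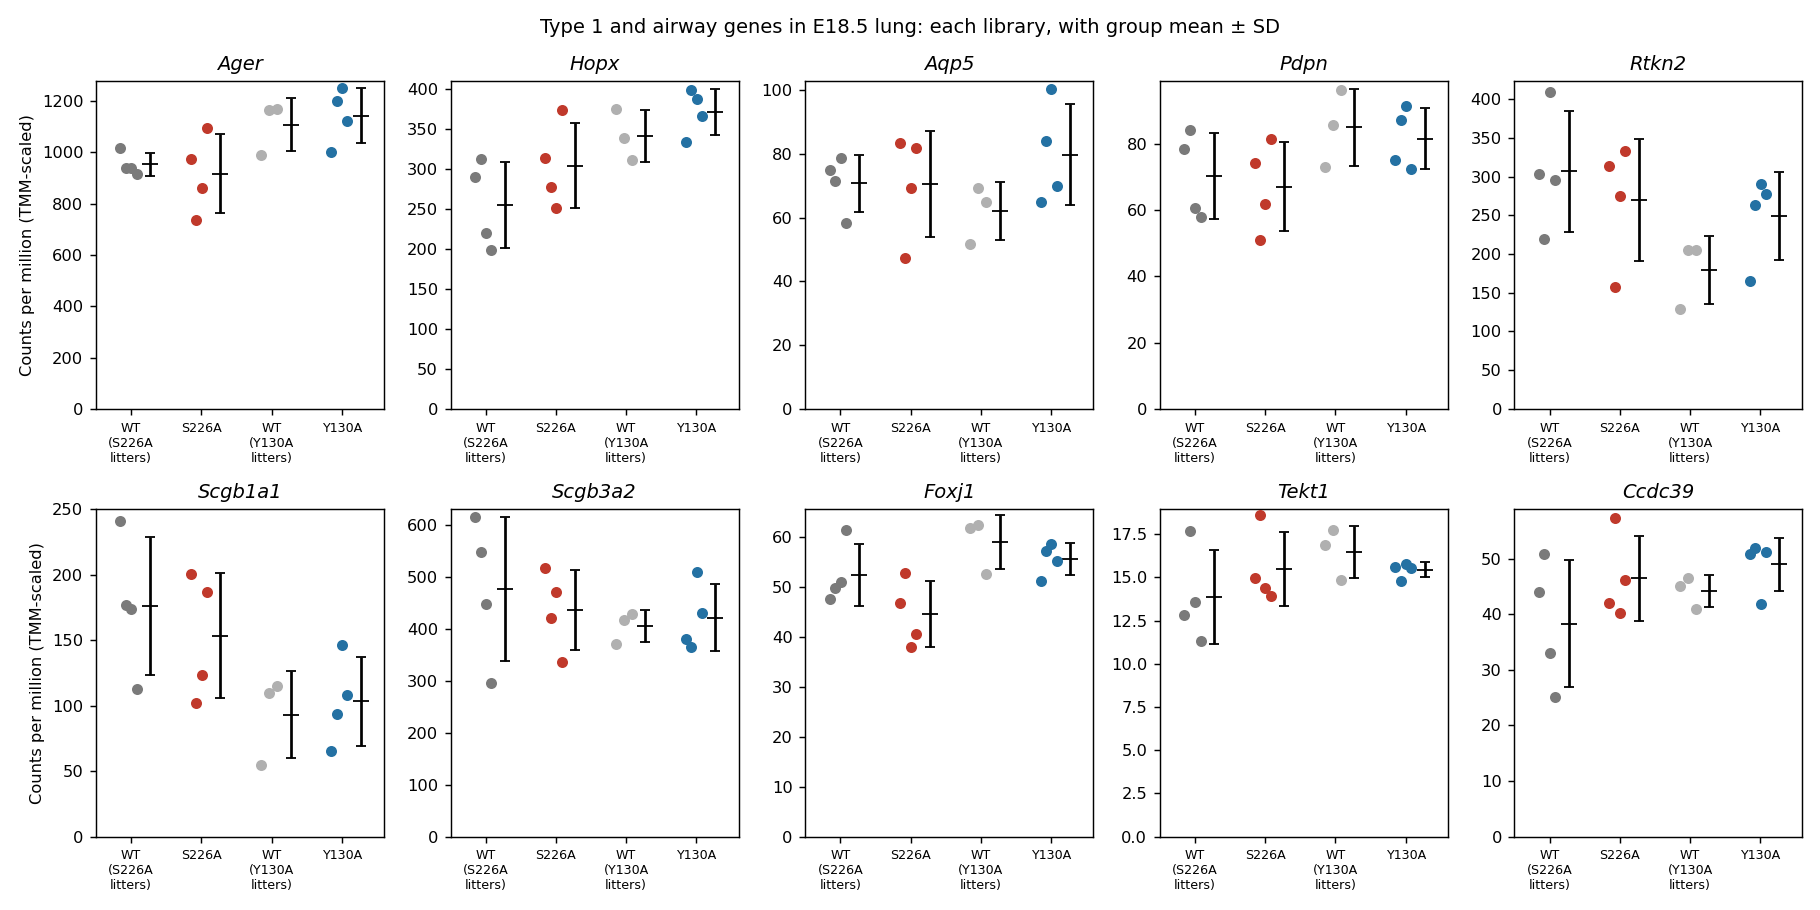
TMM-scaled CPM of each gene in the 15 lungs (points, 1 per embryo), by genotype and litter set, with the group mean ± SD beside the points; every vertical axis starts at 0. Mutants overlap their own WT littermates in each panel, and Rtkn2 and Scgb1a1 are lower in both groups of the Y130A litters than in WT of the S226A litters by the means.

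The S226A intervals set limits on what could have been missed. All 10 intervals lay within a 2-fold change in either direction, 4 of 10 lay within 1.5-fold, and the outermost bounds over the members were 0.570-fold (Foxj1) and 1.71-fold (Tekt1). The median log2 fold change of the members was -0.06, beside 0.00 over all genes tested. No 2 groups of S226A and WT lungs were without overlap for any member, where 3.81% of all genes had groups that did not overlap. Without S226A replicate 2 the median of the members was 0.04, and 0 were called.

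In Y130A lungs the members again gave 0 calls, where the background was 0.0178% of all genes (3 of 16892), and DESeq2 called 0 of the members. Rtkn2 alone had an unadjusted p below 0.05 in the main fit (background 2.92%). That count was 0 in the 15 lungs alone, and 2 with litter as a replicate block or with only the libraries compared. Rtkn2 measured 165, 263, 291 and 278 CPM in Y130A and 129, 205 and 205 CPM in WT littermates. No member had groups without overlap (background 4.16%). For Rtkn2 the lowest mutant value lay between the WT values, and the mutant was higher in all 3 litters with both genotypes, by 0.36 to 0.51 on the log2 scale. The log2 fold change was 0.47 ± 0.21 (SE, adjusted p = 1 by edgeR's quasi-likelihood test), and leaving out single lungs moved it between 0.28 and 0.63.

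Aqp5 was next, with 65.0, 84.0, 100 and 69.9 CPM in Y130A against 51.9, 69.3 and 64.9 CPM in WT. Its log2 fold change was 0.36 ± 0.19 (SE, adjusted p = 1 by edgeR's quasi-likelihood test), and the mutant was higher in 3 of 3 litters. Ager measured 1001, 1202, 1250 and 1121 CPM in Y130A and 990, 1165 and 1170 CPM in WT, a log2 fold change of 0.05 ± 0.20 (SE). Hopx measured 0.12 ± 0.23 (SE) and Pdpn -0.06 ± 0.17 (SE). Of the airway genes, Scgb1a1 measured 65.2, 93.8, 147 and 108 CPM in Y130A and 55.0, 110 and 115 CPM in WT, a log2 fold change of 0.15 ± 0.31 (SE). Foxj1 was 55.5 ± 3.24 CPM (SD, n = 4) against 58.8 ± 5.41 CPM (SD, n = 3), and Tekt1 was 15.4 ± 0.426 CPM against 16.5 ± 1.49 CPM. Scgb3a2 and Ccdc39 had log2 fold changes of 0.06 ± 0.28 and 0.15 ± 0.24 (SE). All 10 intervals, which rest on the same spread over 47 libraries, lay within 2-fold in either direction, and 9 of 10 held no change.

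**Figure D3:**
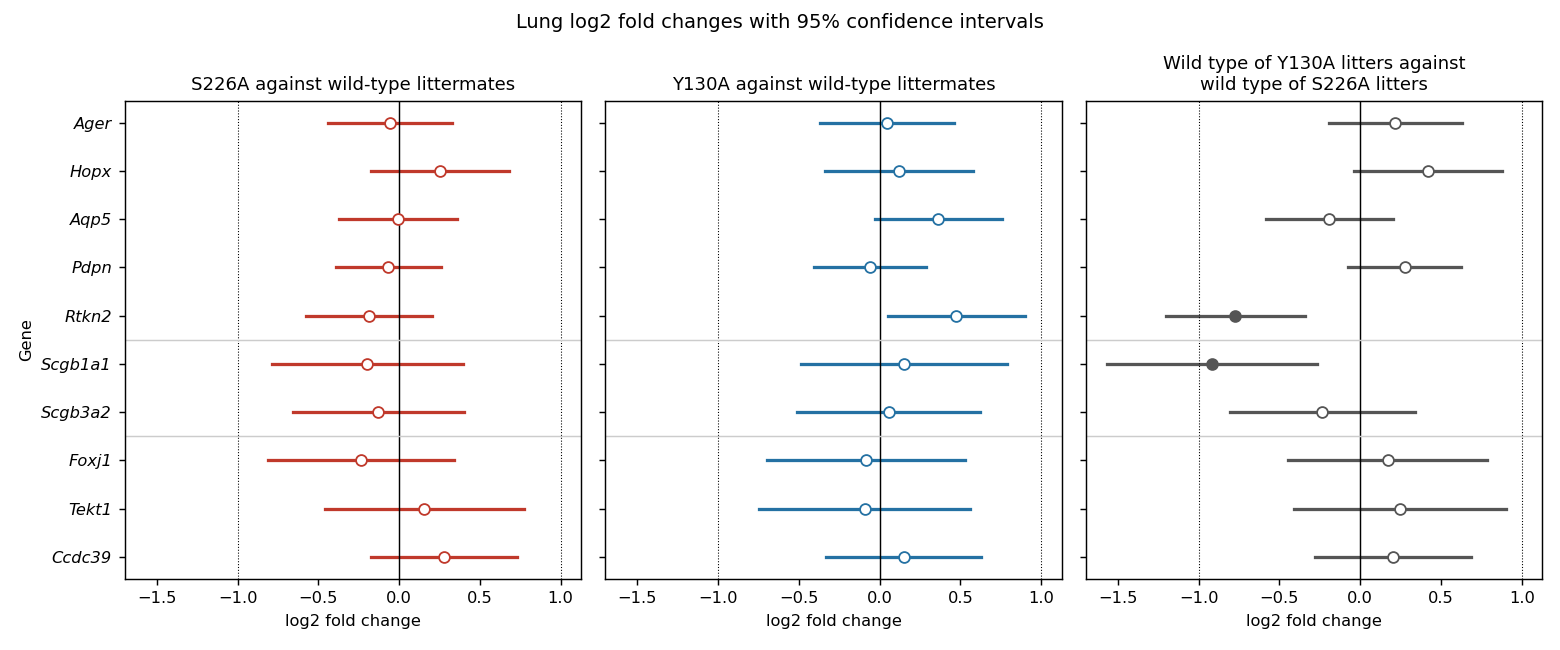
Log2 fold changes of the 10 genes in lung (points) with 95% confidence intervals (lines) from the edgeR fit, for S226A, for Y130A and for the 2 sets of WT lungs; filled points have an adjusted p below 0.05, and dotted lines mark a 2-fold change. All intervals of both mutants stay within the dotted lines, and only Rtkn2 and Scgb1a1 are filled, in the comparison of WT lungs.

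The interaction test, which compares the effects of both mutants, passed 0 of 10 members, beside 0.308% of all genes (52 genes, or 124 with litter as a replicate block). DESeq2 called 0 as well. Rtkn2 was the only member with an unadjusted p below 0.05 (background 9.8%), with an S226A effect minus Y130A effect of -0.66 ± 0.29 (SE, adjusted p = 0.436 by edgeR's quasi-likelihood test). In the 15 lungs alone 0 members had an unadjusted p below 0.05. The differences of the other 9 members ranged from -0.37 (Aqp5) to 0.25 (Tekt1) on the log2 scale.

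Between the WT lungs of the 2 litter sets, Rtkn2 and Scgb1a1 passed the test. Rtkn2 measured 303, 219, 409 and 295 CPM in WT lungs of the S226A litters and 129, 205 and 205 CPM in those of the Y130A litters, without overlap. The log2 fold change was -0.77 ± 0.21 (SE, adjusted p = 0.00724). Scgb1a1 measured 176 ± 52.5 CPM (SD, n = 4) in the S226A litters and 93.1 ± 33.2 CPM (SD, n = 3) in the Y130A litters, a log2 fold change of -0.92 ± 0.32 (SE, adjusted p = 0.0405), although 1 WT lung of the S226A litters lay among those of the Y130A litters. With these 2 genes lower, 2 of 10 members were called, beside 20.1% of all genes (10.8% lower), so that the share among members was near the background. Only Rtkn2 had groups that did not overlap, beside 22% of all genes. The other 8 members had log2 differences from -0.23 (Scgb3a2) to 0.42 (Hopx) and were not called. The stringent call held 0 of 10 members, beside 1.62% of all genes.

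Both calls depended on the libraries fitted, while the differences themselves were -0.78 for Rtkn2 and -0.92 for Scgb1a1 in the 15 lungs alone and -0.79 and -0.94 with DESeq2, close to the values above. In a fit to the 15 lungs alone the adjusted p was 0.0517 for Rtkn2 and 0.0549 for Scgb1a1, DESeq2 called Rtkn2 (adjusted p = 0.00287) and not Scgb1a1 (adjusted p = 0.347), and no member passed without replicate 1 of the Y130A litters' WT lungs or without replicate 3 of the S226A litters' WT lungs. With single lungs left out the differences ranged from -0.90 to -0.58 for Rtkn2 and from -1.10 to -0.65 for Scgb1a1. The litter sets also differed in depth, with 15722147 to 21512763 counts per lung in the S226A litters and 36351738 to 49731811 in the Y130A litters. Of the 63 marker genes of other cells tested, on 10 lists, 9 were called, a share of 14.3% and below the background of 20.1%. Of the heart and skeletal muscle genes, 2 of 7 were called higher in WT lungs of the Y130A litters, and their sum was 922 to 1082 CPM there and 382 to 746 CPM in WT lungs of the S226A litters. The 6 squamous genes had a median log2 difference of 1.48 with 0 called. Of the type 2 genes 2 of 8 were called lower, of the leukocyte genes 2 of 7 lower, of the endothelial genes 1 of 7 higher and 1 lower, and of the fibroblast genes 1 of 6 lower. The other lists, of smooth muscle, mesothelium, tracheal cartilage and erythroid cells, held 0 calls. The part of these cells in the 2 calls was not tested. Litter set, depth and anything else that differed between the sets cannot be told apart.

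A further 7 lists of genes of the same cell types and programs, 97 genes in all, were read from the same fit. By edgeR no gene on them was called in S226A, in Y130A or in the interaction, and 10, 3 and 4 of the 97 had an unadjusted p below 0.05, below or near the backgrounds of 16.2%, 2.92% and 9.8%. DESeq2 called 2 of the 97 in S226A, Sox9 and Gas8, beside 3.81% of all genes (643 of 16892), and 0 in Y130A and in the interaction. Their median log2 fold changes were -0.01 in S226A and 0.01 in Y130A, beside 0.00 over all genes tested in either.

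The other type 1 genes (14) had a median of -0.09 in S226A and 0.07 in Y130A. They include the collagen IV chains Col4a3 and Col4a4 of the alveolar basement membrane, and Col4a4 measured -0.40 ± 0.19 (SE, adjusted p = 0.283) in S226A. The epithelial regulators (12) had medians of -0.13 and -0.05. Sox9, a factor of the distal tip progenitors and of cartilage, came closest to a call in S226A, at -0.82 ± 0.24 (SE, adjusted p = 0.0608), from 12.2 CPM in WT to 6.92 CPM. The 5 tracheal cartilage genes tested had a median of -0.61 in S226A with 0 called, and their list summed to 7.89 to 22.8 CPM in S226A and 13.1 to 26.3 CPM in WT. Their part in the Sox9 value was not tested. Nkx2-1 measured -0.55 ± 0.23 (SE, adjusted p = 0.212), with 62.6 CPM in S226A and 91.6 CPM in WT. In Y130A the same genes measured -0.15 (Sox9) and -0.10 (Nkx2-1).

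Among 12 other secretory genes, whose medians were -0.15 in S226A and 0.15 in Y130A, the P450 enzyme Cyp2f2 measured -0.18 and 0.20. The gel-forming mucin Muc5b measured -1.53 ± 0.69 (SE, adjusted p = 0.258) in S226A, on group means of 55.6 and 161 CPM (adjusted p = 0.729 by DESeq2). The lowest value on this list was that of Pigr, the receptor that carries immunoglobulin A across epithelia, at -1.80 ± 0.68 in S226A (SE, adjusted p = 0.162 by edgeR and 0.0674 by DESeq2) and 0.58 in Y130A, on S226A and WT means of 0.159 and 0.553 CPM. The ciliation regulators (12) and the other motile cilium genes (35) had medians of 0.02 and 0.04 in S226A and of -0.04 and 0.02 in Y130A. Rfx2 and Rfx3, which encode X-box binding factors, measured -0.53 and -0.07 in S226A, and the dynein regulatory complex gene Gas8 measured 0.46 ± 0.14 (SE, adjusted p = 0.0707). Hydin, a central apparatus gene, measured -0.05 in S226A and 0.12 in Y130A. The basal cell list (5) had a median of 0.13 in S226A and -0.87 in Y130A, with all 5 below 0 in Y130A and standard errors up to 1.44, and its most abundant gene Krt15 measured -0.60 ± 0.98 (SE) there. All 6 squamous genes (median -0.85) and all 6 smooth muscle genes (median -0.23) were below 0 in Y130A as well, with 0 called, and their part in the basal values was not tested. The neuroendocrine list (7) had medians of -0.26 and -0.17, and Uchl1, its most abundant gene, measured -0.26 and -0.12. Its highest values were those of Resp18, a gene of endocrine secretory cells, at 1.59 ± 0.72 in S226A and 1.38 ± 0.50 in Y130A (SE, adjusted p = 0.264 and 1 by edgeR, 0.0949 and 0.153 by DESeq2), on group means of 0.109 to 0.479 CPM.

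**Figure D4:**
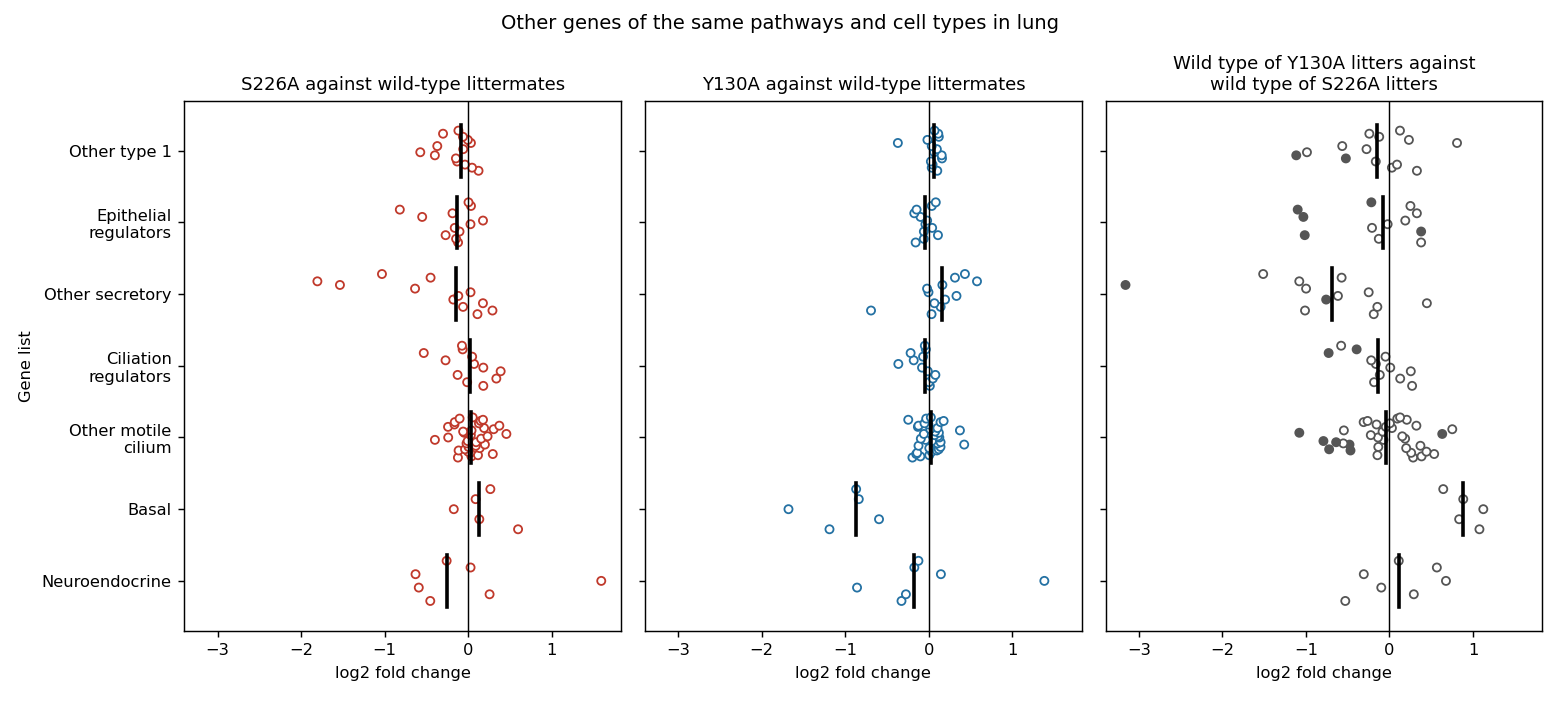
Log2 fold changes of the 97 genes on 7 lists (1 point per gene, black bar the list's median) in the same 3 lung comparisons; filled points have an adjusted p below 0.05. No point is filled for either mutant, while 18 are filled between the 2 sets of WT lungs.

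Between the 2 sets of WT lungs 18 of the 97 listed genes were called, 16 lower and 2 higher in the Y130A litters, close to the background of 20.1%. The type 1 list gave 2 lower, with Col4a4 at -1.12 ± 0.21 (SE) and Col4a3 also lower. Of the epithelial regulators, Foxa1 (-1.01), Sox9 (-1.10), Nkx2-1 (-1.03) and Yap1 (-0.22) were lower and 1, Foxa2, was higher. The secretory list gave Cyp2f2 (-0.76) and Muc5b (-3.16), and DESeq2 called neither (adjusted p = 0.0571 and 0.225). Rfx2 and Rfx3 were lower, as were 6 of 35 motile cilium genes, with Hydin at -1.08, Cfap44 at -0.72 and Cfap43 at -0.47, and 1, Gas8, was higher at 0.63. Neither the basal nor the neuroendocrine list gave a call.

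Markers of other cells were read in the same lungs. Of 10 lists, only the leukocyte list held calls in S226A lung, where 4 of 7 genes were called, 2 higher and 2 lower, beside the background of 1.88%. They included S100a8 and S100a9 of neutrophils, higher by 1.65 and 1.83, and Csf1r of macrophages, lower at -1.13 on the log2 scale. The summed level of its 7 genes was 139 to 190 CPM in S226A and 107 to 149 CPM in WT, and 5 of the 7 had a read in every S226A library. The 8 type 2 genes summed to 10719 to 13676 CPM in S226A and 11095 to 14158 CPM in WT, with 0 called. Keratinised squamous genes, as of the oesophagus, varied widely within each group, with sums from 1.24 to 144 CPM in S226A, from 1.63 to 183 CPM in Y130A and from 67.5 to 182 CPM in the WT littermates of Y130A, and up to 166 CPM in those of S226A. The part of these cells in the values above was not tested.

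Several members varied together among embryos of the same group. Deviations of log2 CPM from the group mean were correlated over the 15 lungs for all 45 pairs, with permutation within groups (100000 draws) and adjustment over the 45 pairs. For 8 pairs the adjusted p of Pearson's r was below 0.05, and for 7 pairs that of Spearman's rho. Of the 8 pairs, 5 joined type 1 genes, out of 10 such pairs, and 3 joined a type 1 gene to Scgb1a1, out of 10 pairs of type 1 and secretory genes. Ager and Aqp5 gave r = 0.88 and rho = 0.90 (permutation p = 0.00025 and 0.00088, adjusted p = 0.00563 and 0.0138). The draws treat the lungs of a group as independent, although littermates varied together, so that these p-values may be too small. When littermates were moved together within each litter set (all 144 arrangements, smallest possible p = 0.00694), the exact permutation p was below 0.05 for all 8 pairs (0.00694 to 0.0208) and the adjusted p for none (0.0521 to 0.117). For Ager and Aqp5 the relation held within the S226A litters (r = 0.86, 8 lungs) and within the Y130A litters (r = 0.93, 7 lungs), without the 2 lungs farthest from the median (r = 0.84) and without S226A replicate 2 (r = 0.80).

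Ager and Scgb1a1, genes of different cell types, gave r = 0.84 and rho = 0.88 (permutation p = 0.00022 and 0.00051, adjusted p = 0.00563 and 0.0138), with 0.80 and 0.93 within the litter sets and 0.91 without the 2 farthest lungs. Ager also varied with Pdpn (r = 0.82, rho = 0.78) and with Rtkn2 (r = 0.80, rho = 0.76), and Aqp5 with Scgb1a1 (r = 0.84, rho = 0.79) and Rtkn2 (r = 0.79, rho = 0.84). Pdpn and Scgb1a1 gave r = 0.77 and rho = 0.73. Aqp5 and Pdpn passed by Pearson's r (0.78, adjusted permutation p = 0.0287) and not by Spearman's rho (0.65, adjusted permutation p = 0.0925). Without the 2 lungs farthest from the median these pairs ranged down to r = 0.63.

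No pair with Hopx passed. Its r was 0.69 with Pdpn (permutation p = 0.0422, adjusted p = 0.158), 0.48 with Ager and -0.01 with Rtkn2, and that with Pdpn was 0.88 in the S226A litters and -0.12 in the Y130A litters. Not every pair within the type 1 genes named above passed either, and Pdpn and Rtkn2 gave r = 0.40. No pair with a ciliated gene passed. Tekt1 and Ccdc39 had the highest value among these, r = 0.76 and rho = 0.54 (permutation p = 0.0228 and 0.0674, adjusted p = 0.103 and 0.270), with 0.82 in the S226A litters and 0.26 in the Y130A litters. Foxj1 had r from -0.18 to -0.49 with the 7 type 1 and secretory genes, and none of these passed. The sign was not shared by the litter sets, since all 7 values were negative in the S226A litters (-0.68 to -0.40) and 6 of 7 were positive in the Y130A litters (-0.11 to 0.86), and 3 of 7 were positive without the 2 farthest lungs. The values are of whole tissue and CPM are shares of 1 total, and what differed between embryos of a group was not tested.

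**Figure D5:**
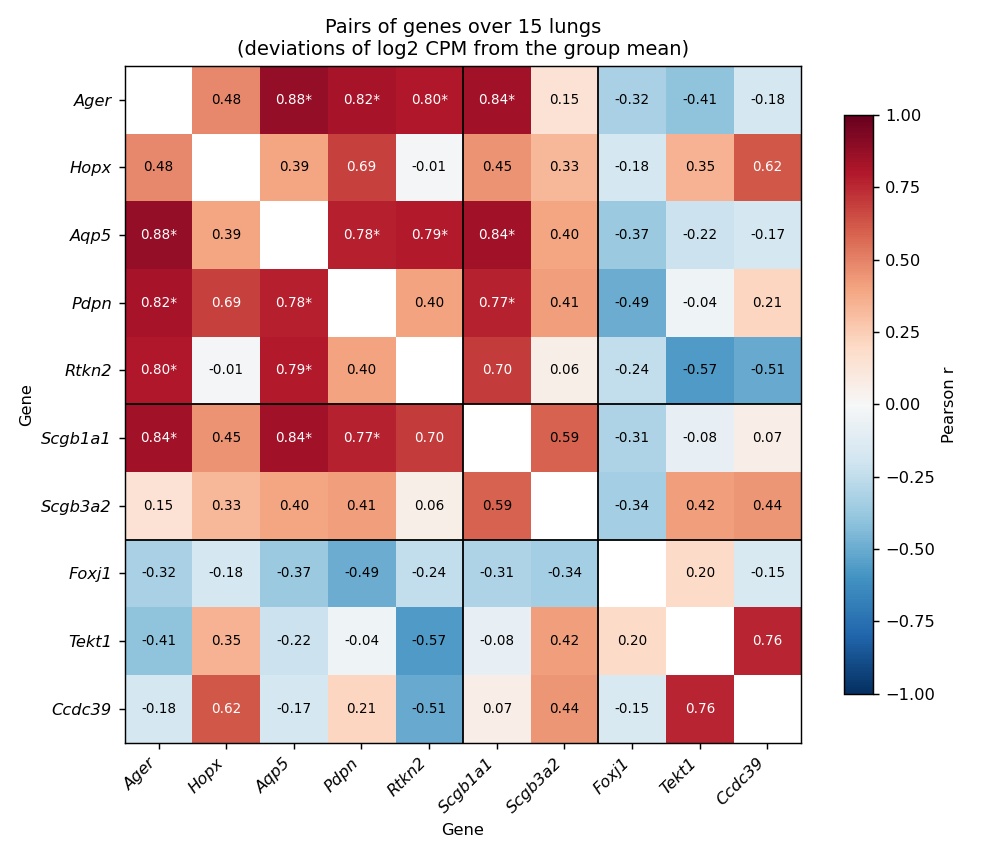
Pearson r for each pair of the 10 genes over 15 lungs, from deviations of log2 CPM from the group mean (red positive, blue negative; black lines separate type 1, secretory and ciliated genes); a star marks an adjusted permutation p below 0.05. Ager, Aqp5, Pdpn, Rtkn2 and Scgb1a1 hold all 8 stars.

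S226A replicate 2 stood at the edge of the range for several members. It was the lowest of all 15 lungs for Ager (738 CPM), Aqp5 (47.5 CPM) and Pdpn (50.8 CPM) and the highest for Tekt1 (18.6 CPM) and Ccdc39 (57.4 CPM). Its type 1 genes summed to 1271 CPM, beside 1967 CPM in the highest lung of its group. The member with the widest range over the 15 lungs was Scgb1a1, at 4.38-fold from the lowest to the highest, followed by Rtkn2 at 3.18-fold, and the narrowest were Foxj1 and Tekt1 at 1.64-fold each. Within groups the coefficient of variation of Ager was 4.68% to 16.7% and that of Scgb1a1 29.8% to 35.6%.

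Outside the members, the genes whose log2 CPM over the 15 lungs was most like each of Ager, Scgb1a1 and Foxj1 were sought among 12956 genes. Unlike in the pair test, group means were not removed. Differences between genotypes and between litter sets, which also differed in depth, therefore enter these r values, which are descriptions only. Ager was followed most closely by Brap (r = 0.91), Glul (0.91), Aldh2 (0.91), Tinagl1 (0.90) and Pacsin2 (0.89). Scgb1a1 was followed by Rnase4 (0.98), Cxcl15 (0.95), Lyz1 (0.94), Arhgef38 (0.93) and Prdx6 (0.93), of which Cxcl15 encodes a chemokine of lung epithelium and Lyz1 a lysozyme. Foxj1 was followed by Lzts2 (0.88), Dazap1 (0.87), Dffa (0.85), Vasp (0.84) and Adap1 (0.84), none of which is on the cilium lists.

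In brain and liver no member was called in either mutant by edgeR's quasi-likelihood test, where the backgrounds were 11.7% in S226A liver, 0.272% in Y130A liver, 0.243% in S226A brain and 0.00592% in Y130A brain. At an unadjusted p below 0.05 were 2 members in S226A liver (Pdpn and Rtkn2, background 24.7%), 3 in Y130A brain (Aqp5, Scgb1a1 and Scgb3a2, background 2.22%) and 0 in the other comparisons. DESeq2 called 0 members in these tissues, where its share over all genes was not recorded. Ccdc39 measured 40.7, 37.8, 36.6 and 39.4 CPM in Y130A brain and 32.4, 34.6, 28.3 and 32.7 CPM in WT littermate brain, the only member with groups that did not overlap (1 of 10, beside 2.66% of all genes higher without overlap). Its log2 fold change was 0.27 ± 0.22 (SE, adjusted p = 1). The values of Scgb1a1 and Scgb3a2 in Y130A brain rested on 1 library, replicate 1, which is described in the closing section. Aqp5 measured 0.807, 0.281, 0.376 and 0.712 CPM in Y130A brain, so that replicates 1 and 4 lay above the highest WT littermate brain (0.395 CPM). Replicate 1, the highest of all brains for Aqp5, is that same library.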

How the data were processed

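The deposited values are counts of reads per gene, made by the authors with STAR 2.6.0b on GRCm38.p6 with GENCODE M19 and not normalized. The labels also name FastQC 0.11.5, Trim Galore 0.6.5 and DESeq2. The counts of all 47 libraries were fitted with edgeR 4.0.16 (R 4.3.3), 1 coefficient per group, TMM scaling and filterByExpr (minimum count 10, minimum total 15), which left 16892 of 20456 genes. Standard errors were derived from each F statistic, and p-values were adjusted by Benjamini-Hochberg over all genes tested. Log2 CPM used a prior count of 2. Lung totals ranged from 15722147 to 49731811. The fit and the pair test were tested on simulated data. Members, lists and rules were chosen with earlier results of these data known. All 10 members are named, with up to 4 called genes per list (or the most abundant) and the 5 genes most like Ager, Scgb1a1 and Foxj1; leukocyte markers, Foxa2, Resp18, Pigr and the surfactant genes were named after their values were seen, and 1 leukocyte marker is not reported here. In lung, the replicate numbers follow the litters in the labels for all 7 pairs, and residuals of littermates correlated above 0.1 in 6 of 7 pairs (0.0095 to 0.302). The pair test was repeated with littermates moved together. Alternatives were RLE scaling, no filter, DESeq2 1.42.0, fewer libraries, the stringent call, a litter block and single lungs left out. No lung library duplicated another of its own group (lowest chi-square per degree of freedom 10.8 over 21 pairs), and pairs across groups were not examined.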

Additional observations from a re-analysis of the deposited data

Results flagged for a closer look

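Within groups of 4, 89 sets of member values with at least 10 counts in 1 library were checked for a lone sample by Dixon's ratio (95% critical value), and 10 exceeded it, where chance gives about 1 in 20. Only 1 of these was in lung, Ccdc39 in Y130A replicate 3, at 41.9 CPM below the 50.8 to 51.8 CPM of the other Y130A lungs. In brain, Ccdc39 was low in WT replicate 2 of the S226A litters (32.6 CPM, others 39.2 to 40.1), Pdpn was low in S226A replicate 4 (17.3 CPM, others 21.3 to 22.0), and Ager was high in S226A replicate 4 (1.53 CPM, others 0.875 to 0.976) and in WT replicate 1 of the Y130A litters (1.68 CPM, others 1.14 to 1.23). In liver, Ager was high in WT replicate 2 of the Y130A litters (4.93 CPM, others 1.81 to 2.33), Foxj1 in Y130A replicate 1 (2.15 CPM, others 0.203 to 0.521) and Hopx in WT replicate 2 of the S226A litters (21.8 CPM, others 12.1 to 13.4).

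Y130A brain replicate 1 exceeded it for Scgb3a2 (1.10 CPM, others 0 to 0.122) and Scgb1a1 (0.315 CPM, others 0 to 0.0407). The same library held 13.2 CPM of the surfactant gene Sftpc (671 counts), where the other 15 brains ranged up to 1.63 CPM, and 1.38 CPM of Sftpa1, where they ranged up to 0.240 CPM. It was also the highest brain for Ager (2.77 CPM, others up to 1.68) and Aqp5 (0.807 CPM, others up to 0.712). Next highest was WT replicate 1 of the same litter for Ager, Scgb3a2, Sftpc and Sftpa1, and Y130A replicate 4 for Aqp5 and Scgb1a1. The source of these reads was not tested. Without this library the lung comparisons of both mutants again held 0 called members.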

How the results depend on the processing

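In S226A, in Y130A and in the interaction, 0 of 10 members were called under every alternative run, including litter as a replicate block (0 called in each). Between the 2 sets of WT lungs the 2 called members became 0 in the fit to 15 lungs, 0 with only the libraries compared, 0 under the stringent call and 1 with DESeq2, and 0 to 2 with single lungs left out; the cause was not tested. The log2 fold changes kept their sign outside the leave-one-out fits. There, 11 crossed 0: in S226A, Ager (-0.15 to 0.036), Aqp5 (-0.10 to 0.14), Pdpn (-0.17 to 0.045), Rtkn2 (-0.32 to 0.0043) and Scgb3a2 (-0.30 to 0.018); in Y130A, Ager (-0.029 to 0.10), Pdpn (-0.16 to 0.038), Scgb1a1 (-0.12 to 0.33) and Scgb3a2 (-0.049 to 0.12); in the interaction, Pdpn (-0.11 to 0.11) and Ccdc39 (-0.027 to 0.30). Called genes over the whole table moved more. S226A gave 317 with the main settings, 65 in 15 lungs, 34 with only the libraries compared, 612 with the block, 643 with DESeq2 and 135 to 1423 with 1 lung left out (1423 without WT replicate 2). The interaction gave 52, 12, 124 with the block and 187 with DESeq2, Y130A 3, 0 and 17 with DESeq2, and the WT sets 3388 and 269 with only the libraries compared. For the interaction, only the libraries compared are the 15 lungs, so that no separate fit exists. The 8 pairs stayed 8 on log2(CPM + 1) and without TMM, and by Spearman 7 became 5 without TMM. With littermates permuted together (chosen after seeing the data) the 8 pairs became 0, where the 144 arrangements limit how low an adjusted p can be. Of the 10 intervals, 4 in S226A and 3 in Y130A lay within 1.5-fold, so that smaller changes were not resolved for the other members.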
